A study of Mus musculus with 12 samples.

Results

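The circadian clock genes described here were Bmal1, Clock, Per1, Per2, Per3, Cry1, Cry2, Nr1d1, Nr1d2 and Dbp, 10 of the 21956 genes measured, taken by symbol. They were chosen by the counts of Bmal1, which was among the clearest decreases after hemorrhage in knockout mice, so the values of all 10 genes in that contrast, and of Bmal1 wherever those mice enter, are given as a description with no test. RNA-seq was performed on brain tissue next to the hematoma from 12 mice, 3 in each of 4 groups. The ICH groups received collagenase in the right striatum, which produces an intracerebral hemorrhage (ICH), and were sampled 48 h later, and the sham groups had the same surgery without collagenase. All mice carried floxed Fabp4 alleles, Fabp4 being a fatty acid binding protein. Mice labelled Fabp4 fl/fl were the controls, and mice labelled Fabp4 CKO also carried a tamoxifen-inducible Cre under the microglial Tmem119 promoter and received tamoxifen for 7 days, ending 14 days before surgery. The groups are named Sham-Fabp4 fl/fl, Sham-Fabp4 CKO, ICH-Fabp4 fl/fl and ICH-Fabp4 CKO. Whether the fl/fl mice received tamoxifen, the age of the floxed mice and the hour of the day at which tissue was taken are not given in the sources used here. Mice without neurological deficits after ICH were left out by the study.

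The mammalian clock is a feedback loop of transcription that runs in most cells of the brain. BMAL1 and CLOCK form the activating pair, which binds E-box sequences and turns on the Per, Cry, Nr1d and Dbp genes. PER and CRY proteins then inhibit the pair, REV-ERB proteins (from Nr1d1 and Nr1d2) repress Bmal1 through ROR elements, and DBP acts on D-box sequences. Because the levels of these transcripts move over the day, the hour of sampling bears on every value below.

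The start regions of 4 members are shown because they hold the letters through which the loop is known to run. Each window runs from 250 bases before to 50 bases after an annotated start in RefSeq (build GRCm38.p6), 5′ to 3′ on the gene's strand, and capitals mark the matches. Bmal1 (listed there as Arntl) lies on the plus strand at chr7:113207261-113207560 with 2 ROR elements, Per1 on the plus strand at chr11:69098699-69098998 with 1 E-box, Cry1 on the minus strand at chr10:85185005-85185304 with 1 E-box and 1 E-box variant, and Per3 on the minus strand at chr4:151044616-151044915 with 2 D-boxes.
Bmal1: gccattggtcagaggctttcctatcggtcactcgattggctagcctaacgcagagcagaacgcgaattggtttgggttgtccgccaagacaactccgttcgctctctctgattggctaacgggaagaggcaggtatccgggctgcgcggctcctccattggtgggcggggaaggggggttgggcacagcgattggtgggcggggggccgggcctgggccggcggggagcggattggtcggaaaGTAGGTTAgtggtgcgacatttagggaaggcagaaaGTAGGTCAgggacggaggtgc
Per1: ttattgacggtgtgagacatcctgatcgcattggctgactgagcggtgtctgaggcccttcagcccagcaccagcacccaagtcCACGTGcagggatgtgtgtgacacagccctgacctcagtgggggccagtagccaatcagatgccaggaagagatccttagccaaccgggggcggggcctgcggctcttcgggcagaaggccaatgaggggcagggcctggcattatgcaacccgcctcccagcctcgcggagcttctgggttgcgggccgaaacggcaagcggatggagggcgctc
Cry1: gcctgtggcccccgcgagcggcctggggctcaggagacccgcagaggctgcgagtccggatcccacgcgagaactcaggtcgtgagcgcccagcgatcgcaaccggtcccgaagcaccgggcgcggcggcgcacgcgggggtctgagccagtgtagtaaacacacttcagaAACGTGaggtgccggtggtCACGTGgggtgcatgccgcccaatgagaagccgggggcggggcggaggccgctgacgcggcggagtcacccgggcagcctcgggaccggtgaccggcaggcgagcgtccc
Per3: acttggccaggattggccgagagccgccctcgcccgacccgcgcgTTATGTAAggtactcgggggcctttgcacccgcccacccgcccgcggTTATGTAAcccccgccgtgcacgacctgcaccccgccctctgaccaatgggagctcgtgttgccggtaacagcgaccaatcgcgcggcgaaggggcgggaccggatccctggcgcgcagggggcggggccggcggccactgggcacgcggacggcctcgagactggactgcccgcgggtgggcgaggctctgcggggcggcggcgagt

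The motifs were searched on both strands as CACGTG (E-box), CACGTT (E-box variant), TTATGTAA or TTACGTAA (D-box) and GTAGGTNA (ROR element), and none of these overlapped another in the windows shown. Of 32851 windows of the same length, 7.15% held the E-box, 4.68% the E-box variant, 1.06% a D-box and 2.14% the ROR element, whose letters were taken from the form known from Bmal1 itself. Windows were found for 9 of the 10 members, 13 in all, and Per2 is named only. A match in 6 of these members is a description of letters, not of binding.

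Each library is 1 mouse, with 15650813 to 22406216 estimated counts. The cell and region content of the libraries differed in ways that touch the clock genes. The summed level of 8 neuron markers was 5048 to 6135 TMM-normalised CPM, the counts scaled to a common library size, in the 6 sham mice, 1489 to 3435 CPM in ICH-Fabp4 fl/fl and 1508 to 4420 CPM in ICH-Fabp4 CKO, where mouse 2 held the highest value. Sham-Fabp4 fl/fl mice 1 and 2 had striatal neuron markers at 1762 and 2029 summed CPM against 5622 CPM in mouse 3, and cortical neuron markers at 399.5 and 544 CPM against 99.2 CPM, so these libraries stood apart in their regional markers. Choroid plexus markers summed to 1446 to 4553 CPM in Sham-Fabp4 fl/fl and to 199 to 435 CPM in the other groups. Mitochondrial genes took 16.3%, 10.4% and 11.9% of the counts in ICH-Fabp4 fl/fl mice 1 to 3, against 8.51% to 9.95% in Sham-Fabp4 fl/fl, and the part of this in the fl/fl changes was not tested. The library of ICH-Fabp4 CKO mouse 1 held 1 Y-linked count, against 1302 to 2251 in the others. Fabp4 had 2, 1 and 2 counts in Sham-Fabp4 fl/fl, 0 in each Sham-Fabp4 CKO mouse, 46, 63 and 24 in ICH-Fabp4 fl/fl and 5, 3 and 10 in ICH-Fabp4 CKO. In bulk tissue, fewer cells of a type and less RNA per cell cannot be told apart.

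The comparison of ICH with sham in Fabp4 fl/fl mice asks how hemorrhage changes the clock genes in mice that did not choose them. Of the 10 members, 5 fell at an adjusted p under 0.05 (Bmal1, Cry2, Nr1d1, Per1 and Nr1d2) and none rose, beside 19.3% of 14719 genes tested that fell and 26.2% that rose (edgeR's quasi-likelihood test, p-values adjusted by Benjamini-Hochberg over those genes). All 10 log2 fold changes lay below 0 on the TMM scale, with a median of -0.61 against 0.02 over all genes, but with libraries scaled to the neuron markers 9 of the 10 lay above 0. That scaling moved the median of all genes to 1.40, and 66.8% of all genes rose under it. All 10 members lay below that median. The scaling shifts all genes by a similar amount, so this restates the TMM result and is no further support. Without ICH-Fabp4 fl/fl mouse 2 only Cry2 was called, beside 1465 of 14910 genes that fell. Without Sham-Fabp4 fl/fl mouse 2 the count was 3, beside 1707 of 14933 genes that fell. One fit of all 12 libraries called 3, beside 3020 of 15089 genes that fell. The same kind of fit without Sham-Fabp4 fl/fl mice 1 and 2 leaves 1 sham fl/fl mouse. It takes the spread of that group from the other groups, so its calls are not set beside these. All 10 members passed the filter on low counts.

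**Figure D1:**
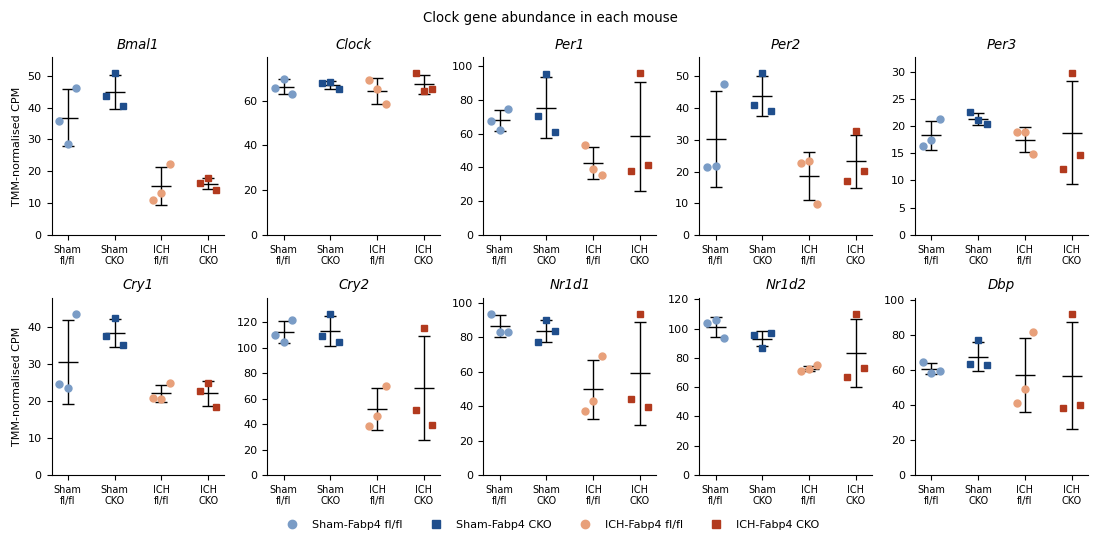
TMM-normalised CPM (y axis, from 0) of the 10 clock genes in each of 12 mice by group (x axis), with the mean and SD of 3 mice as bars. Bmal1 lay at 10.9 to 22.2 CPM in all ICH mice and at 28.5 to 50.7 CPM in all sham mice, while ICH-Fabp4 CKO mouse 2 sat within or above the sham range for the other 9 genes.

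Bmal1 (ENSMUSG00000055116), the activator whose rhythm the REV-ERB proteins set, measured 35.7, 28.5 and 46.3 CPM in Sham-Fabp4 fl/fl mice 1 to 3 and 10.9, 13.0 and 22.2 CPM in ICH-Fabp4 fl/fl mice. Every ICH mouse was below every sham mouse. The mean was 36.8 ± 8.97 CPM (SD, n = 3) in sham and 15.4 ± 6.01 CPM (SD, n = 3) after ICH, or 41.8% of sham. Its log2 fold change was -1.28 (SE 0.32, adjusted p = 0.0152, edgeR's quasi-likelihood test). Without ICH-Fabp4 fl/fl mouse 2 the change was -1.21 with an adjusted p of 0.0599. Scaled to the neuron markers it was -0.09 with an adjusted p of 0.871.

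Clock (ENSMUSG00000029238), the partner of BMAL1, measured 65.9, 69.7 and 63.1 CPM in sham and 69.5, 65.2 and 58.3 CPM after ICH. The groups overlapped, and across all 12 mice its highest value was 1.24 times its lowest. The log2 fold change was -0.08 with a 95% interval of -0.37 to 0.20 on the TMM scale, and it was 1.33 (adjusted p = 0.00565, edgeR's quasi-likelihood test) when scaled to neuron markers.

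The Cry genes encode the strongest inhibitors of the activating pair. Cry2 (ENSMUSG00000068742) measured 110.4, 105 and 122 CPM in sham and 38.4, 46.4 and 70.4 CPM after ICH, with no overlap. Its log2 fold change was -1.15 (SE 0.25, adjusted p = 0.00934, edgeR's quasi-likelihood test), and scaled to neuron markers it was 0.09. Cry1 (ENSMUSG00000020038) measured 24.7, 23.5 and 43.7 CPM in sham and 21.0, 20.6 and 24.9 CPM after ICH. The highest ICH mouse lay above both sham mice that stood apart in regional markers. Its log2 fold change was -0.50 with a 95% interval of -1.12 to 0.11. One fit of the 10 libraries other than Sham-Fabp4 fl/fl mice 1 and 2 rests on a single Sham-Fabp4 fl/fl mouse. That mouse is assumed to vary like the other groups, so the calls of this fit are not given.

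Among the Per genes, the other inhibitors, Per1 (ENSMUSG00000020893) measured 67.4, 62.0 and 74.6 CPM in sham and 53.4, 39.1 and 35.3 CPM after ICH. No ICH mouse reached a sham mouse, and the log2 fold change was -0.72 (SE 0.17, adjusted p = 0.0143, edgeR's quasi-likelihood test), against 0.74 when scaled to neuron markers. Per2 (ENSMUSG00000055866) measured 21.3, 21.8 and 47.7 CPM in sham and 22.8, 23.3 and 9.88 CPM after ICH. Sham mice 1 and 2 were below ICH mice 1 and 2, so the groups overlapped, and the log2 fold change was -0.75 with a 95% interval of -1.72 to 0.22. Per3 (ENSMUSG00000028957) measured 16.3, 17.4 and 21.3 CPM in sham and 18.9, 18.8 and 14.8 CPM after ICH. These groups overlapped too, with a log2 fold change of -0.11 and a 95% interval of -0.51 to 0.29, and it was 1.30 (adjusted p = 0.0169, edgeR's quasi-likelihood test) when scaled to neuron markers.

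The REV-ERB genes repress Bmal1. Nr1d1 (ENSMUSG00000020889) measured 93.7, 83.0 and 82.9 CPM in sham and 37.1, 43.0 and 69.2 CPM after ICH, and Nr1d2 (ENSMUSG00000021775) measured 103.5, 106 and 93.3 CPM in sham and 71.0, 72.1 and 74.9 CPM after ICH. Neither gene overlapped between the groups. The log2 fold change of Nr1d1 was -0.83 (SE 0.25, adjusted p = 0.0324, edgeR's quasi-likelihood test) and that of Nr1d2 was -0.51 (SE 0.13, adjusted p = 0.0164). The call of Nr1d1 was lost on leaving out any mouse except ICH-Fabp4 fl/fl mouse 3, with adjusted p-values of 0.0573 to 0.102. Both turned positive when scaled to neuron markers, to 0.42 and 0.86. Nr1d1 shares 1075 bases with Thra on the other strand in RefSeq, the library kit does not mark strand, and reads there cannot be told apart. Thra, a thyroid hormone receptor, had a log2 fold change of -0.64 (adjusted p = 0.0508).

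Dbp (ENSMUSG00000059824), an output of the activating pair, measured 64.2, 58.4 and 59.2 CPM in sham and 41.2, 48.9 and 81.2 CPM after ICH. ICH mice 1 and 2 were below every sham mouse and ICH mouse 3 was above every sham mouse. The log2 fold change was -0.11 with a 95% interval of -0.73 to 0.51, and it was 1.12 (adjusted p = 0.0147, edgeR's quasi-likelihood test) when scaled to neuron markers. Dbp shares 741 bases with Sphk2 in RefSeq, and Sphk2 had a log2 fold change of 0.34 (adjusted p = 0.0704). Per3 shares 4714 bases with Uts2, which had 0 counts in every library. Bmal1, Clock, Per2 and Cry2 share bases with noncoding genes or a pseudogene (Gm33721, Gm7467 and Ube2n-ps1, Gm35591, and D930015M05Rik, in that order). Those genes were not found by symbol in the deposited counts. Shared bases were counted over whole gene spans, introns included, so whether reads from those genes enter the members' counts was not tested.

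**Figure D2:**
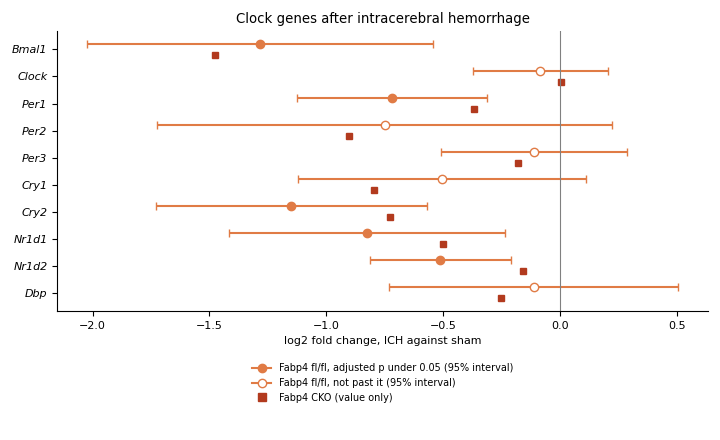
Log2 fold change of ICH against sham (x axis) for each clock gene, as circles with 95% intervals in Fabp4 fl/fl (filled where the adjusted p was under 0.05) and as squares, values only, in Fabp4 CKO. On this TMM scale Bmal1 was the lowest gene in both genotypes, at -1.28 and -1.48, and with neuron marker scaling the fl/fl values of all but Bmal1 turned positive.

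In Fabp4 CKO mice, the contrast that chose the genes, Bmal1 measured 43.5, 50.7 and 40.5 CPM in sham and 16.3, 17.8 and 14.2 CPM after ICH, a log2 fold change of -1.48. Per2 measured 41.1, 50.9 and 39.1 CPM in sham and 17.1, 32.8 and 20.1 CPM after ICH. Cry1 measured 37.8, 42.5 and 35.1 CPM in sham and 22.9, 25.0 and 18.5 CPM after ICH. These 3 of 10 members were lower without overlap, beside 28.9% of 14737 genes. Of the other 7, 6 overlapped through ICH-Fabp4 CKO mouse 2 alone, and Clock had ICH mice on both sides of the sham mice. Cry2 measured 109, 127 and 105 CPM in sham and 51.0, 116 and 39.1 CPM after ICH. Nr1d1 measured 77.5, 90.0 and 83.4 CPM in sham and 44.0, 93.6 and 39.6 CPM after ICH. In both, mouse 2 was at the sham level and the other ICH mice were far below it.

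The same mouse stood out for the remaining members. Per1 measured 70.3, 95.4 and 60.7 CPM in sham and 38.1, 95.7 and 41.3 CPM after ICH. Per3 measured 22.6, 21.1 and 20.5 CPM in sham and 12.1, 29.7 and 14.7 CPM after ICH. Dbp measured 63.0, 76.8 and 62.7 CPM in sham and 38.3, 92.0 and 39.7 CPM after ICH. For each of these genes mouse 2 had the highest value of all 12 mice. Nr1d2 measured 95.7, 87.0 and 96.8 CPM in sham and 66.6, 110.1 and 73.1 CPM after ICH. Clock measured 68.1, 68.2 and 65.2 CPM in sham and 72.2, 64.4 and 65.4 CPM after ICH. Counted against the range of the 6 sham mice, 9 members lay below it in ICH-Fabp4 CKO mice 1 and 3, and 1 member, Bmal1, did in mouse 2. Without mouse 2, 9 of 10 members were lower without overlap, beside 40.2% of 14963 genes in the same 2 ICH mice and 3 sham mice. Mouse 2 also had the most neuron marker RNA of the ICH mice. Its cortical neuron markers summed to 484 CPM, against 97.9 and 119 CPM in ICH-Fabp4 CKO mice 1 and 3. Its striatal neuron markers summed to 3423 CPM, against 1836 and 1479 CPM. The part of these differences in its clock gene levels was not tested.

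**Figure D3:**
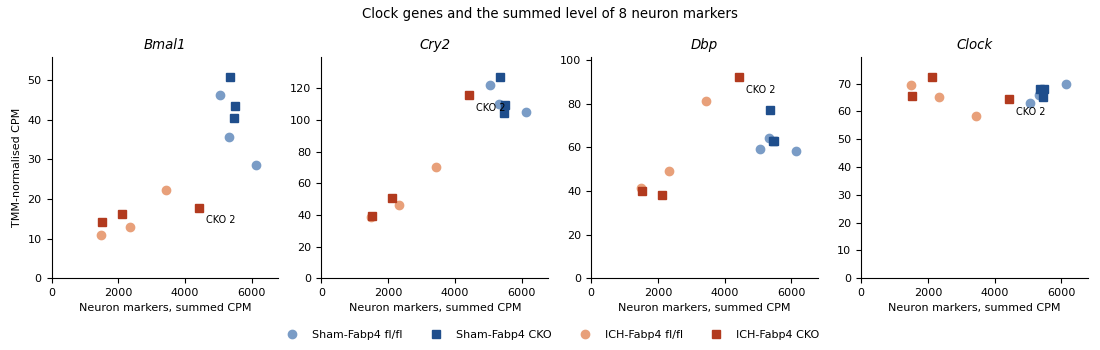
TMM-normalised CPM of Bmal1, Cry2, Dbp and Clock (y axes, from 0) against the summed CPM of 8 neuron markers (x axis) in 12 mice, 1 point a mouse. ICH-Fabp4 CKO mouse 2, at 4420 CPM of neuron markers, lay at 116 CPM for Cry2 among the sham mice and at 17.8 CPM for Bmal1 below all of them.

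Set against neuron markers within each library, 5 members overlapped between ICH and sham in Fabp4 fl/fl mice (Bmal1, Per1, Per2, Cry1 and Cry2) and the other 5 were higher after ICH without overlap. The share of all genes without overlap on this scale was not counted. With libraries scaled to the neuron markers, 66.8% of 14719 genes were called higher in fl/fl mice and 8364 of 14737 in CKO mice. A higher value on this scale is therefore not particular to the members. Bmal1 stood at 6.71, 4.64 and 9.17 CPM per 1000 CPM of neuron markers in Sham-Fabp4 fl/fl and at 7.32, 5.57 and 6.47 in ICH-Fabp4 fl/fl. Cry2 stood at 20.7, 17.1 and 24.2 in sham and at 25.8, 19.8 and 20.5 after ICH on the same scale. The log2 differences of Bmal1 and Cry2 on this scale were -0.04 and 0.10, and those of Per1, Per2 and Cry1 were 0.57, 0.57 and 0.85. In CKO mice, as a description, 3 members overlapped (Bmal1, Per2 and Cry1, at -0.31, 0.21 and 0.36) and 7 were higher without overlap, Cry2 among them at 0.28. Clock stood at 12.4, 11.4 and 12.5 in sham and at 46.7, 27.9 and 17.0 after ICH, and Dbp at 12.1, 9.52 and 11.7 in sham and at 27.7, 20.9 and 23.7 after ICH. Both were higher in every ICH mouse than in every sham mouse on this scale. In ICH-Fabp4 CKO mouse 2, Bmal1 stood at 4.03, the lowest of all 12 mice.

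Bmal1 was also set against 5 other members within each library, as a difference of log2 CPM. Bmal1 minus Dbp is plotted, these genes being known to peak at opposite times of day in many tissues. The difference was -0.84, -1.03 and -0.35 in Sham-Fabp4 fl/fl and -0.53, -0.60 and -0.63 in Sham-Fabp4 CKO. It was -1.91, -1.90 and -1.87 in ICH-Fabp4 fl/fl and -1.23, -2.36 and -1.48 in ICH-Fabp4 CKO. For Dbp and for Clock, where the difference was -1.29 to -0.43 in sham and -2.66 to -1.39 after ICH, all ICH mice were below all sham mice. For the other 3 genes sham and ICH mice overlapped, at -1.12 to -0.58 and -2.42 to -0.67 for Per1, -1.54 to -0.83 and -2.39 to -1.43 for Nr1d1, and -1.88 to -1.32 and -2.69 to -1.45 for Cry2. These values carry no test, since Bmal1 in CKO mice chose the genes.

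**Figure D4:**
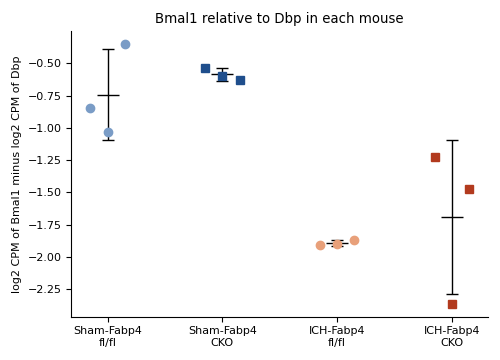
Log2 CPM of Bmal1 minus log2 CPM of Dbp (y axis) in each of 12 mice by group (x axis), with the mean and SD of 3 mice as bars. The 6 sham mice lay between -1.03 and -0.35 and the 6 ICH mice between -2.36 and -1.23.

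The comparisons of genotypes ask whether loss of Fabp4 from microglia changes the clock genes. In sham mice 0 of the 9 members tested were called, beside 0.111% of 14395 genes (edgeR's quasi-likelihood test), and 0 of them had an unadjusted p under 0.05, against 1471 of all genes. The largest difference was that of Per2, which was 0.54 on the log2 scale with a 95% interval of -0.18 to 1.26. Without Sham-Fabp4 fl/fl mouse 3, which leaves the pair that stood apart in regional markers, 3 members (Per2, Per3 and Cry1) were higher in Sham-Fabp4 CKO, beside 10.5% of 14602 genes that were higher in that fit. After ICH 0 of 9 members were called, beside 0% of 14600 genes by the same test, and 0 had an unadjusted p under 0.05, against 1777 of all genes. Per1 had the largest difference, 0.51 with a 95% interval of -0.41 to 1.44, and Bmal1 differed by 0.10. DESeq2 also called 0 members in both comparisons. Beside this it called 139 genes lower and 11 higher of 14395 in sham mice, and 323 lower and 255 higher of 14600 after ICH.

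The interaction of ICH and genotype tests whether the response to hemorrhage differed between CKO and fl/fl mice. None of the 9 members was called, beside 0.0199% of 15089 genes (edgeR's quasi-likelihood test), with 0 at an unadjusted p under 0.05 against 1500 of all genes. DESeq2 called 0 of the 9, beside 83 genes lower and 183 higher of 15089. The estimates ran from -0.33 for Cry1, with a 95% interval of -1.04 to 0.38, to 0.39 for Cry2, with a 95% interval of -0.70 to 1.48. For Bmal1 the difference of the responses was -0.22 (SE 0.36), and it ran from -0.42 to 0.14 with 1 mouse left out, above 0 without ICH-Fabp4 fl/fl mouse 3.

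Of 22 other clock genes, 2 rose and 3 fell after ICH in Fabp4 fl/fl mice, with a median log2 fold change of -0.33 on the TMM scale. Both counts were below the shares over all genes, 26.2% higher and 19.3% lower. Timeless, which acts in replication forks as well as being named for a clock gene of flies, rose from 5.30, 4.16 and 3.10 CPM to 24.8, 20.6 and 12.4 CPM, a log2 fold change of 2.15 (SE 0.31, adjusted p = 0.00185, edgeR's quasi-likelihood test). Bhlhe41, a repressor that competes at E-boxes, rose from 47.6, 36.3 and 43.6 CPM to 66.8, 62.7 and 51.8 CPM, by 0.47 (adjusted p = 0.0408). Neither gene overlapped between the groups. Of the genes for ubiquitin ligase subunits that act on PER and CRY proteins, Btrc fell from 72.8, 72.7 and 98.1 CPM to 27.5, 37.3 and 50.7 CPM, a log2 fold change of -1.11 (adjusted p = 0.0129). Fbxw11 had a log2 fold change of -0.63 (adjusted p = 0.0204) and Fbxl21 one of -1.65 (adjusted p = 0.0242). Of 6 fits with 1 mouse left out, the call of Bhlhe41 held in 1. That of Fbxw11 held in 3, Fbxl21 in 3, Btrc in 5 and Timeless in 6. Scaled to neuron markers, Btrc and Fbxw11 turned to 0.13 and 0.68, Fbxl21 stayed below 0, and 12 of the 22 genes were called beside 68.5% of all genes. Relative to the median of all genes under that scaling, Btrc and Fbxw11 lay at -1.27 and -0.72, which restates their values on the TMM scale.

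**Figure D5:**
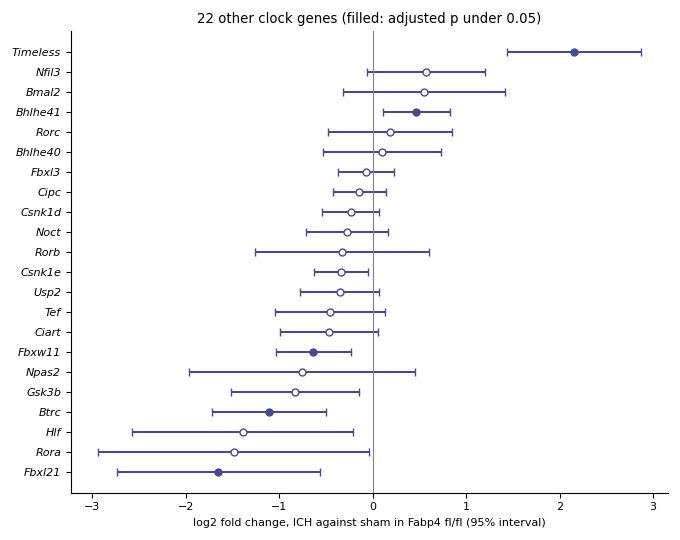
Log2 fold change of ICH against sham in Fabp4 fl/fl (x axis, TMM scale, bars 95% intervals) for 22 other clock genes, filled where the adjusted p was under 0.05. Timeless at 2.15 and Bhlhe41 at 0.47 were the called genes above 0, and Btrc, Fbxw11 and Fbxl21 the called genes below it, of which Btrc and Fbxw11 turned positive with neuron marker scaling.

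The genes whose log2 CPM followed Bmal1 most closely over the 12 libraries, among 15088 genes, were Snx25, Tchh, Cnnm2, Dpysl5 and Gne, with Pearson r of 0.978, 0.977, 0.976, 0.968 and 0.965. The nearest member was Cry1 at 0.888, ranked 1221, and Clock stood at -0.09. These values are a description, since the libraries share the split into sham and ICH mice.

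Marker lists changed in both directions in the fl/fl comparison, and their part in the clock gene values was not tested. All 8 neuron markers and all 8 cortical neuron markers fell, with median log2 fold changes of -1.20 and -3.19, and 0 of 8 striatal neuron markers did, with a median of -0.37 (edgeR's quasi-likelihood test). Of 8 genes each, 7 microglia, 8 endothelial, 3 astrocyte and 3 oligodendrocyte markers rose, as did 3 of 5 erythroid markers, and all 6 choroid plexus markers fell. Of 8 infiltrating myeloid markers 7 passed the filter on low counts, and all 7 rose. They summed to 2.19 to 3.08 CPM in Sham-Fabp4 fl/fl, with up to 4 of the 8 at or under 3 counts in a mouse. Genes that low pass the filter only with the ICH mice, so this count is a description. Per1 and Per2 respond to glucocorticoids and to neuronal activity. Of 12 glucocorticoid-responsive genes 4 rose (Pdk4, Cdkn1a, Mt1 and Mt2, named after their values were seen) and none fell, beside 26.2% of all genes that rose, and 5 of the 12 had fold changes below 0. Mt1 and Mt2, metal-binding metallothioneins, had log2 fold changes of 2.79 and 3.11. The summed level of the list was 1492 to 3552 CPM against 604 to 947 CPM in sham, while its median log2 fold change was 0.34. Of 10 immediate early genes 2 rose and 3 fell, beside 26.2% of all genes that rose and 19.3% that fell.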

How the data were processed

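RNA-seq of poly(A) RNA was performed in 12 mice, 1 library each. The authors deposited estimated counts per gene, made from the sequencing reads, not all of them whole numbers, without normalization. The submitters' processing notes name Bowtie2 2.2.8, HISAT2, StringTie 1.3.1 and DESeq2 without their roles, and the counting tool and genome build are not given in the sources used here. Counts were rounded. The quasi-likelihood test of edgeR 4.0.16 was run under R 4.3.3 (TMM, genes kept by filterByExpr at 10 counts and 15 in total, Benjamini-Hochberg adjustment over all genes tested, threshold 0.05) on the libraries of the groups compared, or on all 12 for the interaction. SE is the absolute log2 fold change over the root of F, and log2 CPM used a prior count of 2. The tests were run on simulated data first. DESeq2 1.42.0, other normalizations, filters, a replicate block and left-out mice were alternatives. A further pair, scaling to the summed counts of 8 neuron markers and leaving out Sham-Fabp4 fl/fl mice 1 and 2, were chosen after seeing the data.

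The members, the other clock genes, the marker lists and the naming rule were chosen with earlier results of these data known. Named were all 10 members, up to 5 other clock genes in each direction past the threshold in the fl/fl comparison, the 5 genes most like Bmal1, Fabp4 and the overlapping Thra. Sphk2 was added after its values were seen. Values of Bmal1 in CKO mice chose the genes, so no p-value is given for them. Promoters are from RefSeq, and figures were drawn with matplotlib 3.10.9. P-values set a difference between groups against the spread between mice within the groups fitted, with 3 mice a group. The test estimates that spread with help from all genes. Intervals cover what the fit estimates, and depth set no limit for the members, all of which were counted in every library.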

Additional observations from a re-analysis of the deposited data

How the results depend on the processing

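In the fl/fl comparison of ICH with sham, 5 members were called, and the same 5 genes were called under another normalization, total counts, DESeq2 and both filters. One fit of all 12 libraries called 3, beside 3020 of 15089 genes that fell. The same kind of fit on the 10 libraries other than Sham-Fabp4 fl/fl mice 1 and 2 changes both choices. It leaves 1 sham fl/fl mouse, whose spread is assumed to be that of the other groups. The same holds for every value below without this pair. The fit with the replicate block also called 5 members and 8 other clock genes, beside 3295 genes that fell and 3967 that rose of 14719. The replicate numbers were not shown to pair the mice, since no comparison had every correlation of same-numbered deviations over 0.1 (0.20, 0.03 and 0.14 here). Leaving out 1 mouse gave 1 to 6 called members (Cry2 alone without ICH-Fabp4 fl/fl mouse 2) and 1 to 11 other clock genes against 5. The low ends came without ICH-Fabp4 fl/fl mouse 2, beside 1465 genes that fell and 2716 that rose of 14910. The high ends came without ICH-Fabp4 fl/fl mouse 3, beside 3856 that fell and 4309 that rose of 14925. DESeq2 called 9 of the other clock genes, beside 3657 that fell and 3911 that rose of 14719. One fit of all 12 libraries called 8 of them, beside 3020 that fell and 4370 that rose of 15089. The cause was not tested.

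Scaling to the neuron markers changed the result most. It called 3 members, all higher (Clock, Per3 and Dbp), and 12 other clock genes, beside 68.5% of all genes. Those 3 members lay below the median of all genes, as they did on the TMM scale. The scaling turned Clock to 1.33, Per1 to 0.74, Per2 to 0.72, Per3 to 1.30, Cry1 to 0.81, Cry2 to 0.091, Nr1d1 to 0.42, Nr1d2 to 0.86, Dbp to 1.12, Btrc to 0.13 and Fbxw11 to 0.68. In CKO mice it left 0 members lower without overlap, and 138 of 14737 genes were called lower under it. Leaving out 1 mouse on the TMM scale gave 3 to 9 such members. The share of all genes was 31.5% to 40.2% where that mouse was an ICH mouse, and was not counted for sham mice. By construction the neuron scaling holds the summed neuron markers level. Dbp ran from -0.49 to 0.071 with 1 mouse left out.

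Small differences between genotypes changed sign. With 1 mouse left out, Bmal1 ran from -0.11 to 0.46 after ICH and from -0.42 to 0.14 in the interaction, and without the pair of sham mice it was -0.040 in sham mice and 0.10 in the interaction. In sham mice, Cry2 was -0.0072 with total counts, and without the pair of sham mice Per2 was -0.12, Cry1 -0.18, Cry2 -0.10, Nr1d1 0.018 and Nr1d2 0.0022. Leaving out 1 mouse gave 0 to 3 called members, -0.060 to 0.093 for Cry2, -0.091 to 0.011 for Nr1d1 and -0.041 to 0.28 for Per1. After ICH, Dbp was -0.00291 with total counts, -0.022 with the replicate block, -0.012 in one fit of 12 and -0.15 with neuron scaling, Cry1 was -0.00202 and -0.071 in the last 2, and Per3 -0.17 with neuron scaling. Leaving out 1 mouse gave -0.050 to 0.16 for Cry1, -0.51 to 0.37 for Dbp, -0.039 to 0.74 for Per1, -0.33 to 0.40 for Per3, -0.16 to 0.74 for Cry2, -0.21 to 0.60 for Nr1d1 and -0.0025 to 0.39 for Nr1d2. In the interaction, neuron scaling gave Clock -0.026 and Per1 -0.058, and without the pair of sham mice Clock was -0.015, Per2 0.47, Per3 0.12 and Cry1 0.19. Leaving out 1 mouse gave -0.020 to 0.12 for Clock, -0.71 to 0.17 for Dbp, -0.70 to 0.0046 for Per2, -0.60 to 0.15 for Per3, -0.25 to 0.56 for Per1, -0.22 to 0.68 for Cry2 and -0.21 to 0.61 for Nr1d1.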
